A study of Mus musculus with 12 samples.

Results

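Open chromatin far from any protein-coding gene was described in 12 ATAC-seq libraries of mouse cells labelled MSCLCs, a cell type that the series title places with bone mesenchymal stem cells. Peaks of all libraries on chromosomes 1 to 19 and X that overlapped by at least 1 bp were merged into 153346 regions. A library is said to call a region if one of its own peaks lay across it. The gene-desert members were selected on their position and on the number of libraries with a call, whatever their group: they are the regions whose centre lay more than 100 kb from every protein-coding gene interval and that were called in 2 to 10 libraries. There were 9644 of them, which is 6.29% of all regions and 11.4% of the 84939 regions called in 2 to 10 libraries. In all, 16828 regions lay in the deserts; 6948 of these were called in 1 library, 193 in 11 and 43 in 12, and they were left out. The member closest to a gene lay 100006 bp away and the region just outside the limit 99944 bp away, and 3167 members were called in 2 libraries and 486 in 10.

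The genotype labels gave 5 groups, and none of them states age, sex or time in culture. Wt had 4 libraries (lines WT_1 and WT_2 on flowcell BSF_0654, and BM and S_203 on flowcell BSF_1013). EF had 4 libraries (lines S_220 and S_221 as replicates 1 and 2 on BSF_0654, and the same lines as replicates 3 and 4 on BSF_1013). Wt_IGF1 had 1 library (line BM), EF_IGF1 had 2 (replicate 1 labelled line S_220 and replicate 2 line S_221), and EF_IGF1_xeno had 1 (line S_221), all on BSF_1013. The title names the fusion EWS::FLI1, insulin-like growth factor IGF-1 and YAP1, and the design text writes EFPrx1, ha-EFPrx1 and hr-EFPrx1 without saying what the prefixes mean or how the fusion was driven. Prx1 is an older name of Prrx1, whose regulatory sequence is widely used to drive transgenes in limb mesenchyme. The EF groups thus rest on 2 lines, each measured more than once, and p-values measure the spread between libraries, which may be partly technical.

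ATAC-seq uses a transposase to cut DNA that nucleosomes leave free, so peaks mark promoters, enhancers and insulators. Gene deserts are long stretches with no protein-coding gene. Some lie beside genes of developmental transcription factors and signalling proteins and hold enhancers that act over long distances, and many carry genes of long noncoding RNAs (lncRNAs) and microRNAs. EWS::FLI1 is the fusion protein of Ewing sarcoma and binds ETS sites and repeats of GGAA. YAP1 has no DNA-binding domain of its own and reaches DNA through TEAD factors, often at sites shared with AP-1, while RUNX factors act in the skeletal lineage.

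Of the members, 137 (1.42%) held a RefSeq start window, taken as the 250 bases before to 50 bases after a transcript's first base. These are starts of noncoding genes, since no protein-coding gene lies near. The window of Gm8883, a gene model inside the largest cluster of members (between Fn1 and Mreg, chr1:71887862-71888161, plus strand), and the windows of Gm51670 beside Mir125b-1 (chr9:41579597-41579896, minus strand), of Lncpint (chr6:31218425-31218724, minus strand) and of Gm35612 beside Firre (chrX:50537139-50537438, plus strand) are shown because each opens a locus described below. Sequences are from RefSeq on GRCm38.p6, 5′ to 3′, and capitals mark matches to TGANTCA (AP-1) or TGTGGT (RUNX) on either strand, with N any base.
Gm8883: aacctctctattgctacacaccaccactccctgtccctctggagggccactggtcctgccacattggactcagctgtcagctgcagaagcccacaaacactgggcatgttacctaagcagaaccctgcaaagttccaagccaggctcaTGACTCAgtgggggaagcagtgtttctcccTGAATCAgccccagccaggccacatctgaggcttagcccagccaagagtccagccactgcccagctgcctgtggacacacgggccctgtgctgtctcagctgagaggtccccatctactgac
Gm51670: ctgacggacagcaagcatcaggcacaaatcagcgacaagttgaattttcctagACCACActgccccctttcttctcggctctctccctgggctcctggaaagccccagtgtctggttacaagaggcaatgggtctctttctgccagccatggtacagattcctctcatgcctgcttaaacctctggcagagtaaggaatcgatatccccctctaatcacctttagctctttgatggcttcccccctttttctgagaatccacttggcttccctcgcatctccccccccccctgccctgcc
Lncpint: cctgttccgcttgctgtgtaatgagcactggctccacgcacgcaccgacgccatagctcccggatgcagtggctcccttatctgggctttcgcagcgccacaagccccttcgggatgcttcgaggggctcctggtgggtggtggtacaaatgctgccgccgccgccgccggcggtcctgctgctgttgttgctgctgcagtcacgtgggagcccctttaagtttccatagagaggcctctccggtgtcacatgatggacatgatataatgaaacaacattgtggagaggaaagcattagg
Gm35612: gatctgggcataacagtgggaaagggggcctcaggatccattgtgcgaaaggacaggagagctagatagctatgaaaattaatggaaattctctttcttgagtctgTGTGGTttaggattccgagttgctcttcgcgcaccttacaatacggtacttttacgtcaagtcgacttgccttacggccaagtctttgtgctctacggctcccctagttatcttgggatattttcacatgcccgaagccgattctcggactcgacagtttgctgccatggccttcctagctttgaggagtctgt

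The Gm8883 window holds 2 AP-1 matches, the Gm51670 and Gm35612 windows hold 1 RUNX match each, and the Lncpint window holds no match to the 4 motifs searched, which says only that these letters are not in it. The region over the Gm8883 window (chr1:71887701-71888523, 235 kb from the nearest protein-coding gene) was called in 9 libraries. Its −log10 q in the Wt libraries was 5.11 in replicate 2, 31.8 in replicate 3 and 102 in replicate 4, with no call in replicate 1, and it was 52.0 in Wt_IGF1. In EF it was 25.9 in replicate 2, although that library had few peaks, and 121 in replicate 4, with no call in replicates 1 and 3, which are both line S_220. It was 41.4 and 90.2 in EF_IGF1 and 57.5 in EF_IGF1_xeno. The only uncalled libraries were thus Wt replicate 1, which had the fewest peaks of all, and the 2 EF libraries of line S_220.

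Over all desert start windows, 156 overlapped a member and 1913 did not. TGANTCA occurred in 21.2% of the windows over a member, in 9.46% of the other desert windows and in 7.85% of all 32619 start windows of the genome. GGAATG, the TEAD motif, occurred in 23.1%, 16.4% and 14.6% of the same sets, and TGTGGT in 26.3%, 19.5% and 16.6%. GGAAGGAA, a repeat of the ETS core, occurred in 5.77%, 3.66% and 3.69%. Both strands were searched, and no motif contains another. The sets also differed in base composition, with a median GC content of 48.3% over members, 44.7% in the other desert windows and 53.0% in all windows, and its part in these shares was not tested. These shares describe starts of noncoding genes only; the other members have no sequence in the tables used here.

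MicroRNA genes were the other sequences that the members touched. Of 1005 mouse hairpins on the chromosomes used, 104 lay in the deserts, 25 lay within 5 kb of a member and 8 were overlapped by one. The mature sequences below belong to 4 desert loci, with the seed (bases 2 to 8), the part that pairs with target messages, in capitals.
miR-29a-3p: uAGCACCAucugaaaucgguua
miR-29b-3p: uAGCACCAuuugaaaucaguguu
miR-100-5p: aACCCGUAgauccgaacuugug
miR-99a-5p: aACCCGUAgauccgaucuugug
miR-125b-5p: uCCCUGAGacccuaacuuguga
let-7c-5p: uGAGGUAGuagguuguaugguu
miR-344-3p: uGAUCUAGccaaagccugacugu
miR-344c-3p: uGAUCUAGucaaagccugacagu
miR-344b-3p: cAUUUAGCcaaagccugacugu
miR-344d-3p: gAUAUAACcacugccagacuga

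miR-29a-3p and miR-29b-3p share the seed AGCACCA, and this family is known for targeting collagen and other matrix messages. miR-100-5p and miR-99a-5p share ACCCGUA although their hairpins lie on chromosomes 9 and 16. miR-344-3p and miR-344c-3p share GAUCUAG, whereas miR-344b-3p and miR-344d-3p each have another seed. The open regions at these loci are given after the groups and clusters.

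The libraries differed in depth. Peaks per library ran from 7723 (Wt replicate 1) to 83679 (Wt_IGF1), EF replicate 2 had 27309 and EF_IGF1_xeno 43376, and the other 8 libraries had 52411 to 69662; the sources used here give no read totals. A region not called is one where no peak passed the authors' threshold, which is not the same as closed chromatin. Of 12 mesenchymal marker genes, 9 to 11 had a peak inside their interval in every library except Wt replicate 1, which had 1. Of 6 blood markers 2 to 5 had a peak in each library and of 4 endothelial markers 0 to 4, while 0 to 2 of 4 skeletal muscle markers had one. Wt replicate 1 had a peak at 4 of the 6 blood markers and at 0 of the 4 endothelial ones. Its marker pattern thus differed from that of the other libraries, and the cells behind it were not tested. The library labelled line S_220 in EF_IGF1 (replicate 1) stood apart from that line. Of 1563 members called in both S_220 libraries of EF and in neither S_221 library, against 9.71% of all regions called in 2 to 10 libraries that met this rule, it called 6.27% (exact 95% interval 5.12 to 7.59), and of 361 members called in both S_221 libraries and neither S_220 library (background 4.65%) it called 67.6% (62.5 to 72.4). EF_IGF1 replicate 2, labelled S_221, called 8.45% and 82.0% of the same sets. EF_IGF1 replicate 1 called 37.9% of all members, but 77.3% of all those called in EF replicate 2, which had few peaks. Its share of the S_221 set was not above that rate and so does not tell the lines apart. The counts of members gained and lost with IGF1 are therefore also given without EF_IGF1 replicate 1. The deserts, clusters and shares described from those gained and lost sets are given with it only.

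Desert peaks were a small share of every library. They made up 1.72%, 4.77%, 8.50% and 9.02% of the peaks of Wt replicates 1 to 4, and 10.3%, 5.62%, 9.42% and 7.51% of those of EF replicates 1 to 4. The share was 9.62% in Wt_IGF1, 7.46% and 7.41% in EF_IGF1 and 6.84% in EF_IGF1_xeno. Wt replicates 1 and 2, both on BSF_0654, were the lowest, and the groups overlapped. The means were 8.22% ± 2.10 (SD, n = 4) in EF and 6.00% ± 3.42 (SD, n = 4) in Wt, a difference of 2.22 percentage points (two-sided exact permutation test over 70 label orders, p = 0.314; the smallest p this design allows is 0.0286). Within BSF_1013 the sign turned, with 8.47% in EF and 8.76% in Wt (2 libraries each, difference −0.292, smallest possible p 0.333), while within BSF_0654 the means were 7.98% and 3.25%.

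**Figure D1:**
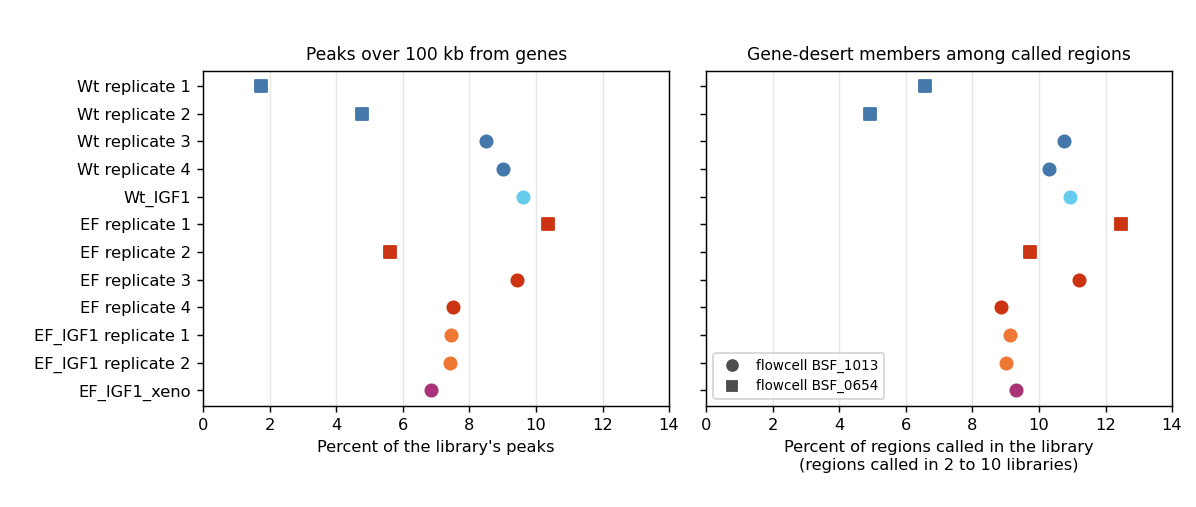
Left, the percent of each library's peaks whose summit lay more than 100 kb from protein-coding genes; right, gene-desert members as a percent of the regions that the library called among those called in 2 to 10 libraries. Each point is 1 library, coloured by group, with squares for flowcell BSF_0654 and circles for BSF_1013; Wt replicates 1 and 2 sit lowest in both panels and the EF and Wt points of BSF_1013 overlap.

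The part of the 9644 members that a library called was 0.819%, 12.1%, 45.1% and 52.4% in Wt replicates 1 to 4, and 43.3%, 12.9%, 39.5% and 43.9% in EF replicates 1 to 4. Wt_IGF1 called 66.6%, the EF_IGF1 libraries 37.9% and 41.9%, and EF_IGF1_xeno 26.8%. Wt replicate 2 thus called few members although it had 60495 peaks, more than EF replicate 1. It had 2887 desert peaks but called 1164 members, where Wt replicate 3 had 4870 and called 4347. Regions that a library alone called cannot be members, and line WT_2 has no other library. Line S_203 has no other library either, and there Wt replicate 4 had 6281 desert peaks and called 5056 members. The cause of the low number in Wt replicate 2 was not tested. The means of EF (34.9% ± 14.8, SD, n = 4) and Wt (27.6% ± 25.03, SD, n = 4) differed by 7.34 points (two-sided exact permutation test, p = 0.771), and the sign turned without Wt replicate 1 (−1.59) and within BSF_1013 (−7.00). As a share of the regions that a library called, the members made up 10.6% ± 1.60 (SD, n = 4) in EF libraries and 8.14% ± 2.85 (SD, n = 4) in Wt libraries, a difference of 2.43 points (two-sided exact permutation test, p = 0.229) that also turned within BSF_1013 (−0.501). None of these 3 differences exceeded the spread between libraries.

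The overlap of calls was read for each pair of libraries. The Jaccard index, the number of members called in both of 2 libraries over the number called in either, was highest between EF replicates 1 and 3, the same line on 2 flowcells (0.628), between Wt replicate 3 and Wt_IGF1, both line BM (0.637), and between Wt replicate 4 and Wt_IGF1 (0.626). EF_IGF1 replicate 1 shared 0.598 with EF_IGF1 replicate 2 and 0.597 with EF_IGF1_xeno, and 0.271 and 0.229 with EF replicates 1 and 3. Over the 8 EF and Wt libraries the mean was 0.224 for pairs of the same genotype and 0.164 for pairs of different genotype, a difference of 0.0599 (one-sided exact permutation test over 35 splits, p = 0.0857; the smallest possible is 0.0286). Pairs of the same genotype include repeat libraries of 1 line (EF replicates 1 and 3 at 0.628, replicates 2 and 4 at 0.270), which pairs of different genotype cannot. The difference was 0.0110 without EF replicate 1, 0.0171 without EF replicate 3, 0.0957 without Wt replicate 3 and 0.105 without Wt replicate 4. Over regions within 100 kb of a gene the same difference was 0.0402 (p = 0.143, same exact permutation test).

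Of the members, 1828 (18.95%) were called in Wt and Wt_IGF1 libraries alone, 2291 (23.8%) in EF, EF_IGF1 and EF_IGF1_xeno libraries alone, and 5525 (57.3%) in both kinds. The first kind has 5 libraries and the second 7. Lines WT_1, WT_2 and S_203 have a single library each, and regions called only there were left out by the rule. The first 2 shares thus depend on the rule and on the numbers of libraries. For the 75295 regions within 100 kb of a gene the shares were 15.8%, 17.2% and 67.0%. Members were called in a median of 3 libraries and those regions in 4, and 32.8% of members against 24.2% of those regions were called in 2. Widths were close, with medians of 479 bp and 482 bp. The median −log10 q of desert peaks was below that of the other peaks in 12 of 12 libraries (7.66 to 15.8 against 7.67 to 20.2), whereas the median fold over local background was below it in 2 of 12. Member centres lay a median of 204 kb from the nearest protein-coding gene and at most 2188 kb, and 1857 members (19.3%) lay in a lncRNA gene, against 10.6% of regions near genes.

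In EF against Wt, 254 members were gained, meaning 3 or 4 of the 4 EF libraries had a call and no Wt library did, which is 2.63% of the members beside 2.15% of all regions called in 2 to 10 libraries. The reverse held for 103 lost members, 1.07% beside 1.69%. Under the stricter rule of 4 of 4 against 0 of 4, 35 members were gained (background 0.303%) and 5 lost (background 0.102%), and no test of single regions was made because 8 libraries are too few for a correction over so many regions. The gained count fell to 39, 62 and 38 without EF replicates 1, 3 and 4, since the remaining 3 EF libraries then include the shallow replicate 2, and was 458 without Wt replicate 4. The lost count was 5, 8 and 7 without Wt replicates 2, 3 and 4, since replicate 1 then had to be among the 3. Within BSF_1013 alone (2 of 2 against 0 of 2), 349 members were gained (background 3.46%) and 1006 lost (background 8.25%), so the larger direction turned. Within BSF_0654, 727 were gained (background 7.38%) and 47 lost (background 0.884%).

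**Figure D2:**
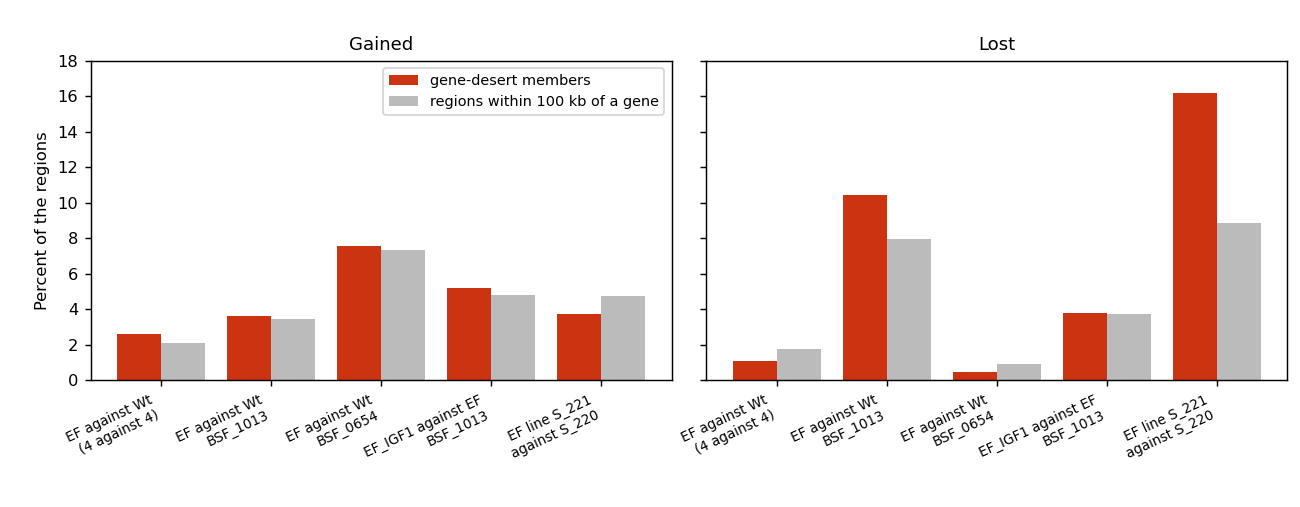
Percent of gene-desert members (red) and of regions within 100 kb of a gene (grey) that were gained (left) or lost (right) in 5 comparisons of libraries. The bars differ by at most 2.46 percentage points except for regions called in both S_220 libraries of EF and neither S_221 library, where 16.2% of members and 8.87% of regions near genes stand side by side.

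Libraries that took no part in that comparison were read for the same members. Of the 254 gained members, EF_IGF1 replicate 1 called 53.5%, EF_IGF1 replicate 2 47.2%, EF_IGF1_xeno 42.5% and Wt_IGF1 32.3%, where these libraries called 37.9%, 41.9%, 26.8% and 66.6% of all members. Of the 103 lost members, Wt_IGF1 called 92.2% (exact 95% interval 85.3 to 96.6), EF_IGF1 15.5% and 27.2%, and EF_IGF1_xeno 5.83%. The lost members were thus mostly called in Wt_IGF1 and mostly not in the libraries of the EF lines. Wt_IGF1 called 96.4% of all members called in Wt replicate 3, also line BM, and 87.4% of those called in Wt replicate 4. Of all members called in Wt_IGF1, Wt replicates 3 and 4 called 65.2% and 68.8%. EF replicate 4 called 73.8% and 72.1% of all members called in EF_IGF1 replicates 1 and 2, and 78.4% of those called in EF_IGF1_xeno. The rules for gained and lost members lean on these Wt and EF libraries. The shares of both sets in Wt_IGF1, EF_IGF1 and EF_IGF1_xeno are thus no separate check.

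The 5 deserts with most members gained in EF are named here; the last place, at 3 gained members, was shared by 6 deserts and given to the one with the smallest start coordinate. The desert between Dsel, an enzyme of dermatan sulfate synthesis, and Cntnap5a, a neural adhesion protein, held 6 of its 21 members as gained; the strongest (chr1:114039195-114040364, 1645 kb from a gene) had a −log10 q of 59.8, 12.3, 63.6 and 75.5 in EF replicates 1 to 4, of 68.3 and 40.3 in EF_IGF1 and of 90.3 in EF_IGF1_xeno, and was called in no Wt or Wt_IGF1 library. All 7 libraries of the EF lines were above, and all 5 others had no peak. Between Nudt12 and Efna5, an ephrin ligand of axon guidance, 5 of 22 members were gained, and the desert was called at 16, 2, 10 and 14 members in EF against 0, 0, 0 and 1 in Wt. Between Ctnna3, an alpha-catenin, and Reep3 4 of 28 were gained, and between Jag1, a Notch ligand, and Btbd3 4 of 50. Between Adgrb3, an adhesion receptor of neurons, and Phf3 (2 unnamed gene models passed over) 3 of 10 were gained; there EF called 9, 1, 9 and 4 members and Wt none, and the strongest (chr1:29818846-29819285) had a −log10 q of 18.3, 9.73, 17.5 and 57.3 in EF and no call elsewhere.

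The 5 deserts with most lost members lay beside other genes, with 13 deserts sharing the last place at 2. Between Kif2a, a kinesin, and Zswim6 4 of 16 members were lost; the strongest (chr13:107607314-107608082, 117 kb from a gene) had a −log10 q of 57.7, 33.5 and 24.6 in Wt replicates 2 to 4 and 39.3 in Wt_IGF1, with no call in the other libraries. Between Rasgef1b and Vamp9 3 of 12 were lost, and the whole desert was called at 0, 7, 7 and 10 members in Wt and 10 in Wt_IGF1 against 1, 0, 1 and 0 in EF and none in EF_IGF1 or EF_IGF1_xeno. Between Prdm1, a repressor that acts in B-cell and germ cell differentiation, and Prep 3 of 14 were lost, between Sucla2 and Htr2a, a serotonin receptor, 3 of 25, and between H2al1j and Bcor, a BCL6 corepressor, 2 of 31. For the strongest between Sucla2 and Htr2a (chr14:73838881-73839468) the −log10 q was 67.3, 13.1 and 27.3 in Wt replicates 2 to 4, 44.6 in Wt_IGF1, and 8.66 and 13.3 in EF_IGF1.

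IGF1 in EF was compared within BSF_1013. There 504 members were gained, called in 2 of 2 EF_IGF1 and 0 of 2 EF libraries, which is 5.23% beside 4.87% of all regions called in 2 to 10 libraries, and 368 were lost, 3.82% beside 3.76%. These shares are near the background. Without EF_IGF1 replicate 1 the counts were 894 gained and 478 lost, and within line S_221 alone, 1 library against 1, 1129 and 1322; within line S_220 as labelled they were 2260 and 2422. Without EF_IGF1 replicate 2, 800 were gained and 586 lost. Without EF replicate 4, 1666 were gained and 2056 lost, and without EF replicate 3, 914 were lost. In libraries outside that comparison, the gained members were called at 48.2% in EF_IGF1_xeno, 10.1% in EF replicate 1 and 2.78% in EF replicate 2, and the lost members at 4.08%, 79.6% and 12.0%. EF_IGF1_xeno thus called more of the gained than of the lost members, beside 26.8% of all members, and EF replicate 1 the reverse, beside 43.3%. However, EF replicate 1 called 80.8% of all members called in EF replicate 3, the same line. EF_IGF1 replicate 1 called 90.2% of all members called in EF_IGF1_xeno. The rule for the gained and lost sets thus largely fixes these shares, and they are no separate check. Wt_IGF1 called 36.1% of the gained and 63.9% of the lost members, beside 66.6% of all members.

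The desert with most members gained with IGF1 lay between Mroh5 and Adgrb1 (1 unnamed gene model passed over), where 20 of 30 were gained. EF_IGF1 called 29 and 30 of the 30 members and EF_IGF1_xeno 21, whereas EF called 2, 0, 3 and 7, Wt 0, 0, 2 and 5, and Wt_IGF1 5. The 3 IGF1-labelled libraries of the EF lines were above every other library. A cluster of 8 members over 43.1 kb there, at the gene models Gm32355 and Gm32405, was called at 7 and 8 members in EF_IGF1, at 3 in EF_IGF1_xeno and at 1 in Wt_IGF1, and at 0 in all 8 EF and Wt libraries. This cluster was picked by the same rule, so its counts in these libraries are no separate check either. Adgrb1 encodes an adhesion receptor that takes part in the uptake of dying cells and in synapses.

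Other deserts with many such members were those between Sall1, a zinc finger factor of kidney and limb, and Tox3 (9 of 15), Myc and Gsdmc (8 of 91), Thap1 and Zfp703 (7 of 35), and Klf4 and Actl7b (7 of 63), where 1 more desert also had 7. Between Sall1 and Tox3, EF_IGF1 called 14 and 13 members and EF_IGF1_xeno 10, EF called 2, 0, 0 and 4, Wt 0, 0, 1 and 8, and Wt_IGF1 7. Wt replicate 4 came nearest to the IGF1 libraries of EF, and the strongest member (chr8:89299549-89300075) had a −log10 q of 53.3 in it, of 47.7 and 62.1 in EF_IGF1 and of 39.8 in EF_IGF1_xeno. Between Myc and Gsdmc the strongest gained member (chr15:62871186-62871753, 881 kb from a gene) was also called in Wt replicates 3 and 4 and in Wt_IGF1, with a −log10 q of 17.4, 13.1 and 21.8 beside 11.8 and 18.6 in EF_IGF1.

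The desert with most members lost with IGF1 lay between Olfr1324 and Stk26 on chromosome X, which holds Firre, and 16 of its 18 were lost. Between Clnk and Hs3st1, a heparan sulfate sulfotransferase, all 6 members were lost: EF called 4, 1, 6 and 6, EF_IGF1 and EF_IGF1_xeno none, Wt 0, 0, 1 and 0, and Wt_IGF1 4. The strongest of these (chr5:39145605-39146305) had a −log10 q of 53.8 in Wt_IGF1 and 3.47 to 29.2 in the 4 EF libraries. Between Rasgrp1 and Thbs1 5 of 55 were lost, and between C1d and Etaa1 4 of 7 and between Marcks and Rfpl4b 4 of 51; 10 deserts shared the last places at 4, and Thbs1 encodes the matrix glycoprotein thrombospondin 1. None of these lost members was called in EF_IGF1_xeno, which called 4.08% of all 368 lost members. EF_IGF1 replicates 1 and 2 called 90.2% and 85.4% of all members called in EF_IGF1_xeno. The rule for lost members thus largely fixes this absence, and it is no separate check.

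Firre is a lncRNA gene of chromosome X whose repeats bind the insulator protein CTCF and which contacts the Dxz4 locus on the inactive X chromosome. Of the 17 members in its cluster (86.2 kb, with Gm35612), Wt replicates 1 to 4 called 0, 14, 0 and 1, and EF replicates 1 to 4 called 15, 0, 16 and 16. Wt_IGF1 called 1, EF_IGF1 1 and 1, and EF_IGF1_xeno 0. The calls thus fell into 4 libraries with nearly all and 8 with at most 1, a division that follows neither genotype, line nor flowcell. EF replicate 2 and Wt replicate 1 had few peaks and called 8 and 1 of all members on X, so their 0 here says little. The strongest member (chrX:50566154-50566867, 140 kb from a gene) had a −log10 q of 7.69 in Wt replicate 2 and of 27.3, 33.1 and 16.8 in EF replicates 1, 3 and 4.

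The member over the Gm35612 start window (chrX:50537213-50538244) went the other way, called in Wt replicate 4, Wt_IGF1 and both EF_IGF1 libraries at a −log10 q of 9.65, 7.77, 5.80 and 9.02 and in none of the 4 libraries with the Firre set. A region at the upper end of the Firre interval, no member since it was called in 11 libraries, was missing in Wt replicate 1 alone. Regions at 4933407K13Rik, the Dxz4 gene, moved with the Firre set: 6 were called in Wt replicate 2 and 5, 7 and 6 in EF replicates 1, 3 and 4, against 0 or 1 in each of the other 8 libraries. At Xist, another lncRNA gene of chromosome X, chrX:103481176-103482074 was called only in the 4 libraries with the Firre set. Another region there (chrX:103477553-103477907) was called in EF replicates 3 and 4 and in both EF_IGF1 libraries. A further one was called only in Wt replicate 2. Peaks in the first 5 Mb of chromosome Y numbered 5 and 11 in Wt replicates 3 and 4 and 7 in Wt_IGF1, and 0 in the other 9 libraries. The part of the X and Y content of the lines in the Firre calls was not tested. Chromosome X held 25 of the 368 members lost with IGF1, and 352 were lost outside the Firre desert. The 25 were 11.4% of the 220 members on X, beside 3.82% of all members, and 16 of them lay in the Firre desert.

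**Figure D3:**
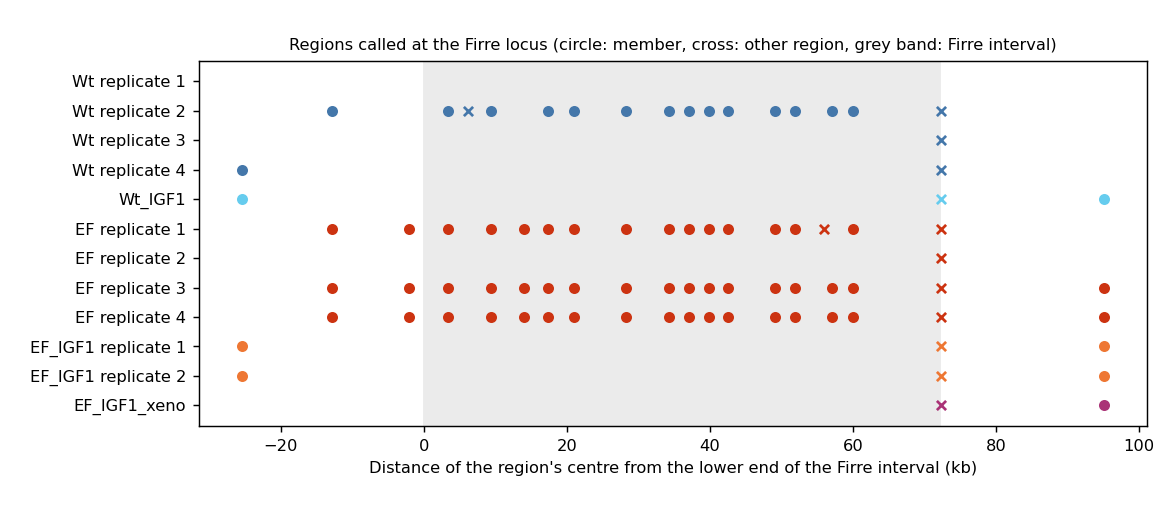
Regions called at the Firre locus in each library, by the distance of their centre in kb from the lower end of the Firre interval (grey band); circles are members, crosses other regions, and colours mark the groups. Wt replicate 2 and EF replicates 1, 3 and 4 show the row of members inside the band, and the member near −25 kb, over Gm35612, appears in 4 other libraries.

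Members were not spread evenly along the deserts. The 1519 deserts had 710 Mb lying more than 100 kb from protein-coding genes and held a median of 3 members, or 13.6 per Mb, and 403 of them (26.5%) held none. The 76 deserts with most members, the top 5%, held 28.6% of the members. Among the 204 deserts with at least 1 Mb of such sequence the density ran from 0 (11 deserts) to 62.5 per Mb. The desert between Myc, the proto-oncogene, and Gsdmc held most members, 91 or 57.4 per Mb; Wt called 0, 16, 51 and 53 of them, Wt_IGF1 61, EF 33, 29, 21 and 64, EF_IGF1 58 and 62, and EF_IGF1_xeno 37. The EF libraries of line S_221 called more of them than those of S_220 on BSF_1013 (64 and 21), and on BSF_0654 the counts were 29 and 33 although replicate 2 had fewer peaks.

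Other deserts rich in members flanked Zeb2, a repressor of epithelial genes (76 members, 21.7 per Mb), Klf4, a pluripotency and epithelial factor (63, 62.5 per Mb), Cited2 (55), Zmiz1 (55), Thbs1 (55), the aggrecanase Adamts5 (52), Marcks (51), Jag1 (50) and Plpp3 (49). Of the 11 large deserts without any member, 6 lay on chromosome X, with the largest of all between Vmn2r121 and Cldn34c4 (2.48 Mb far from genes). The next 4 by size lay between Pcdh9 and Spertl, Cdh9 and Cdh10, Ldoc1 and Slitrk4, and Slitrk1 and Slitrk6, with 1.79, 1.76, 1.66 and 1.63 Mb, and the 3.21 Mb between Slitrk5 and Gpc5 held 1 member. Pcdh9, Cdh9, Cdh10 and the Slitrk genes encode adhesion proteins of neurons; these deserts were named after their values were seen. By chromosome, the density on the 19 autosomes ran from 10.3 per Mb (chromosome 5) to 24.7 (chromosome 13), with 14.4 for all of them, and was 3.96 on X.

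**Figure D4:**
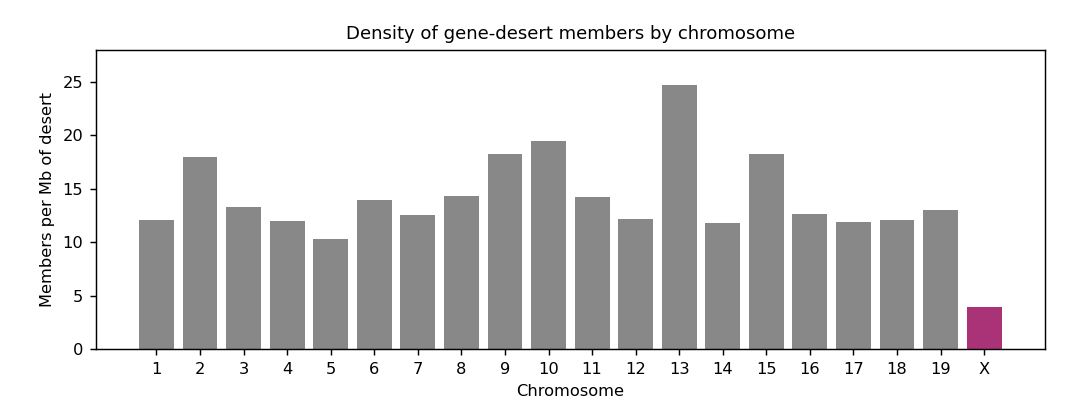
Gene-desert members per Mb of sequence more than 100 kb from protein-coding genes, by chromosome, with autosomes in grey and chromosome X in purple. Chromosome 13 stands highest at 24.7 and X lowest at 3.96.

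Flanking genes were read from lists chosen with earlier results of these data known, and each list is described by its members per Mb beside the 13.6 of all deserts. The 116 deserts next to developmental transcription factors held 1394 members (21.4 per Mb, median 7 per desert), and the 73 next to growth factor and morphogen signalling genes 795 (18.1). The 29 next to matrix and mesenchymal genes held 406 (23.1), led by those of Thbs1, Adamts5, Fn1 (43) and Tnc (36), and the 111 next to neural adhesion and guidance genes 651 (4.44). Deserts next to blood cell genes held 138 members in 13 deserts (21.0 per Mb, led by Ets1 with 39) and those next to endothelial genes 40 in 4 deserts (27.2 per Mb). No desert adjoined a skeletal muscle gene of the list. The shares gained in EF were 2.65%, 2.77%, 2.71% and 5.53% for the first 4 lists in the order named, with 2.64% over all members, and the shares lost 0.933%, 0.503%, 0% and 0.461%, with 1.07%.

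In the deserts beside neural adhesion genes, EF replicates 1 to 4 called 53.1%, 8.29%, 45.9% and 45.6% of the members, where they called 43.3%, 12.9%, 39.5% and 43.9% of all members. Wt replicates 2 to 4 called 5.84%, 28.4% and 31.2% there, beside 12.1%, 45.1% and 52.4% of all members. EF replicate 2 was thus below its share of all members and the other EF libraries above theirs. Among signalling genes the richest deserts were those of Acvr2a, Jag1, Efnb2 (46) and Spry1 (35), a feedback inhibitor of growth factor signalling, and among neural genes those of Adgrl2 (40 and 31), Cdh18 (30) and Tenm4 (29). The endothelial list rests on 1 desert, between the cadherin genes Cdh11 and Cdh5, with 35 of its 40 members. There Wt called 0, 0, 19 and 23 and Wt_IGF1 28, EF called 20, 4, 14 and 11, EF_IGF1 2 and 2, and EF_IGF1_xeno 1; Cdh5 marks endothelium and Cdh11 mesenchyme, and 4 of the 35 were lost with IGF1. Endothelial markers had peaks in all of these libraries (2 to 4 of 4) except Wt replicate 1, and their part was not tested.

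Neighbouring members with centres at most 20 kb apart formed 1000 clusters of 3 or more, which held 49.7% of the members. A cluster had a median of 4 members over 26.1 kb, and 50 clusters had 10 or more. The mean Jaccard index of neighbours' calls over the 12 libraries was 0.374 under 5 kb, 0.401 at 5 to 20 kb, 0.398 at 20 to 100 kb and 0.370 beyond, and 12.9%, 10.6%, 11.9% and 17.8% of the pairs shared no library; no test of these differences was made. Of the members gained in EF 40.2% lay in clusters and of those lost 52.4%, and only 4 clusters held 2 or more gained and 3 clusters 2 or more lost members.

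The largest cluster, between Fn1, the gene of the matrix protein fibronectin, and Mreg, had 39 members over 233 kb. Wt called 0, 7, 22 and 24 of them, Wt_IGF1 27, EF 16, 11, 16 and 26, EF_IGF1 17 and 22, and EF_IGF1_xeno 19, so that the groups overlapped; 1 member was gained and none lost in EF. The cluster between Cdkn2b, a cyclin-dependent kinase inhibitor beside Cdkn2a, and Dmrta1 had 25 members over 109 kb. There EF_IGF1 called 23 and 20 and EF_IGF1_xeno 18, EF 12, 10, 12 and 19, Wt 0, 5, 10 and 14, and Wt_IGF1 14. EF_IGF1 replicate 2 lay 1 member above EF replicate 4, the same line, and 2 members were gained in EF and 3 with IGF1.

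The other large clusters were called in every group. They lay between Klf14 and Mkln1 (23 members), Serp2 and Lacc1 (23), Bcl2l11, a pro-apoptotic gene, and Spdye4c (22, over the lncRNA gene Morrbid, known for repressing Bcl2l11 in myeloid cells), Mn1 and Cryba4 (19), Ubash3b and Sorl1 (17), the stress gene Gadd45g and Diras2 (17), Gas1 and Dapk1 (17), Prok2 and Rybp (16), and Tmem17 and B3gnt2 (15). Each had at most 1 member gained and 1 lost in EF. At Gadd45g, Wt called 0, 6, 7 and 12 of 17, Wt_IGF1 10, EF 8, 9, 11 and 15, EF_IGF1 11 and 12, and EF_IGF1_xeno 11, so that EF replicate 2 was within the range of the others despite its few peaks. At Gas1, a growth arrest and hedgehog co-receptor gene, Wt called 0, 2, 13 and 12 of 17, Wt_IGF1 13, EF 7, 5, 7 and 11, EF_IGF1 7 and 12, and EF_IGF1_xeno 5, and the groups overlapped.

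**Figure D5:**
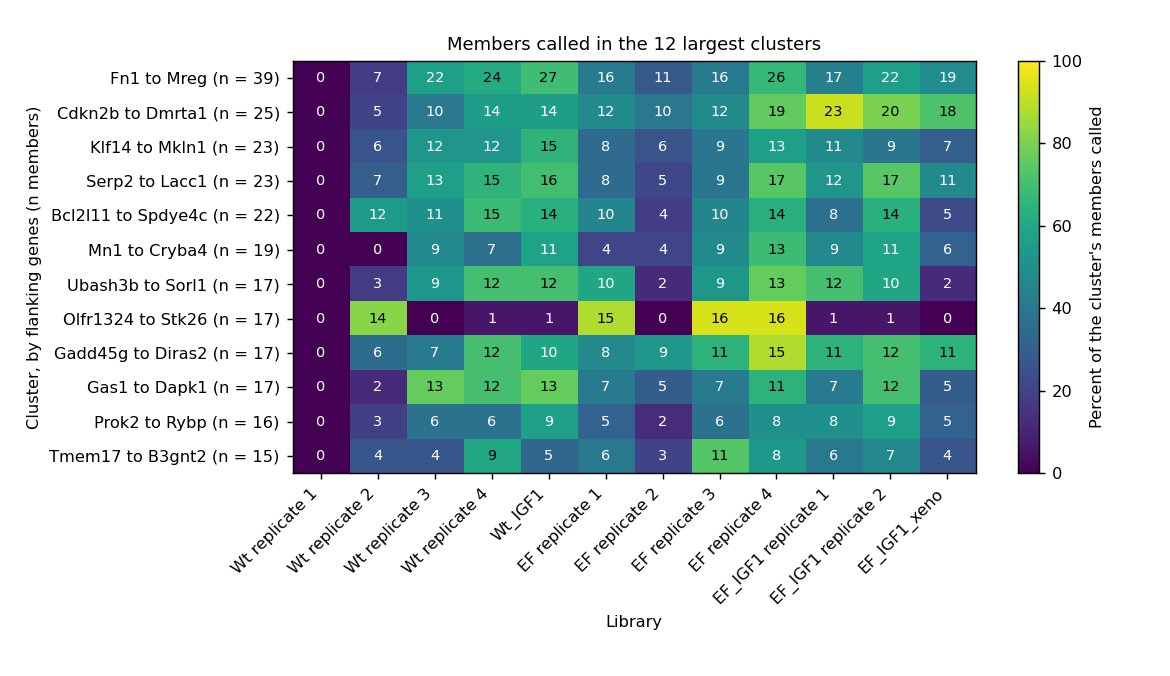
The 12 clusters with most members (rows, named by flanking genes) in the 12 libraries (columns), with the number of members called printed in each cell and the percent of the cluster's members as colour. The Firre cluster between Olfr1324 and Stk26 is the row with 14 to 16 of 17 members in 4 libraries and at most 1 in the others.

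The cluster between Klf14 and Mkln1 holds Mir29a, Mir29b-1 and Lncpint, a lncRNA gene linked to p53. Its members were called at 0, 6, 12 and 12 of 23 in Wt, 15 in Wt_IGF1, 8, 6, 9 and 13 in EF, 11 and 9 in EF_IGF1 and 7 in EF_IGF1_xeno. The member nearest to the Mir29a hairpin, 209 bp away (chr6:31061772-31062451), had a −log10 q of 14.1 in Wt replicate 4, of 14.5, 9.88 and 22.9 in EF replicates 1, 2 and 4, of 18.2 and 7.0 in EF_IGF1 and of 15.1 in EF_IGF1_xeno. It was called in 1 of 5 Wt and Wt_IGF1 libraries and in 6 of 7 others. Other members within 5 kb of this hairpin went otherwise: chr6:31065426-31065838 was called only in Wt replicate 2 (−log10 q 35.9) and Wt_IGF1 (15.7), and chr6:31058870-31059313 in Wt replicates 3 and 4 (22.7 and 6.50), Wt_IGF1 (14.6) and EF_IGF1 replicate 2 (16.4). The member over the Lncpint start window was called in 6 libraries of every group except Wt_IGF1, at a −log10 q of 4.22 to 18.95. The strongest member of the cluster (chr6:31099707-31101146) was called in 9 libraries and not in EF replicates 1 and 3, the S_220 libraries, as at Gm8883.

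The cluster between Ubash3b and Sorl1 (1 unnamed gene model passed over) lies over Mir100hg, the host gene of Mir100, Mirlet7a-2 and Mir125b-1. Of its 17 members Wt called 0, 3, 9 and 12, Wt_IGF1 12, EF 10, 2, 9 and 13, EF_IGF1 12 and 10, and EF_IGF1_xeno 2. The member over the Gm51670 start window was called in 8 libraries, in Wt at a −log10 q of 11.2 (replicate 3) and 24.7 (replicate 4), in Wt_IGF1 at 8.79, in EF at 6.94, 16.8 and 21.2 (replicates 1, 3 and 4) and in EF_IGF1 at 15.9 and 27.2. EF_IGF1_xeno thus called few of these members, with 43376 peaks, beside the 19 of 39 it called at Fn1.

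The second locus of this microRNA family, Mir99ahg on chromosome 16, had its hairpins, Mir99a and Mirlet7c-1, beyond the upper end of the gene's interval in this annotation. Of the 9 members within 10 kb of the gene, Wt called 0, 2, 7 and 3, Wt_IGF1 9, EF 0, 0, 0 and 2, EF_IGF1 3 and 1, and EF_IGF1_xeno 0. The member nearest to both hairpins (chr16:77602484-77603054) had a −log10 q of 50.5, 8.97 and 19.8 in Wt replicates 2 to 4, of 17.6 in Wt_IGF1 and of 4.15 in EF replicate 1, and no call in the other EF libraries or in EF_IGF1 and EF_IGF1_xeno. The locus was chosen with its values known, so no test is given.

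The Mir344 family lies as a row of copies in a desert of chromosome 7. Of 18 members within 500 kb of Mir344, Wt called 0, 0, 5 and 9, Wt_IGF1 11, EF 12, 2, 10 and 13, EF_IGF1 12 and 14, and EF_IGF1_xeno 2. Members lay over 7 hairpins (Mir344, Mir344-2, Mir344b, Mir344c, Mir344d-2, Mir344d-3 and Mir344i), 5 of them called in 6 to 8 libraries; that over Mir344c (chr7:61837050-61837772) had a −log10 q of 5.57 and 43.0 in Wt replicates 3 and 4, of 16.9, 44.2 and 11.8 in EF replicates 1, 3 and 4 and of 15.1 and 44.4 in EF_IGF1. Mir344 and Mir344-2 give the same mature sequences, so reads of 50 bases may not separate the copies, and the sources used here do not say how the authors placed such reads. The remaining hairpin over a member was that of Mir137, a neural microRNA, called in Wt replicate 4 (−log10 q 3.76) and Wt_IGF1 (5.57).

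The single libraries gave counts without a replicate check. In Wt_IGF1 but no Wt library, 813 members were called (8.43%, background 6.96%), with 11 of 46 between Slc10a2 and Efnb2, an ephrin ligand of vessels and neurons, 11 of 76 between Zeb2 and Acvr2a, an activin receptor, and 7 of 11 between D3Ertd751e and Pcdh10, a protocadherin, the last of these being 1 of 5 deserts with 7. Wt_IGF1 had the most peaks, and between Slc10a2 and Efnb2 7 of the 11 were also called in EF replicate 1 and 6 in EF replicate 4. Against the Wt libraries of its own flowcell, 957 members were gained (background 9.83%) and 87 lost (background 1.13%). EF_IGF1_xeno alone among the 7 libraries of the EF lines called 26 members (0.270%, background 0.193%), 2 of them between Cetn3 and Mef2c, a muscle and blood transcription factor, 1 between Tpd52 and Zbtb10 and 1 between Tcp10c and Tcte2, both among 21 deserts with 1. Against both EF_IGF1 libraries it gained 85 members (background 0.914%) and lost 840 (8.71%, background 12.3%).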

How the data were processed

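ATAC-seq peak lists of 12 mouse libraries were analysed, grouped by the genotype label. TDE1 transposase cut the DNA of digitonin-treated cells, and libraries were sequenced in single-end reads, per the labels' protocols. The submitters' processing notes name MACS2 (no version) and GRCm38.p3. The sources used here do not give the aligner, filters on reads, any shift for the transposase, options of the caller or any control. The authors called peaks per library, and the deposited lists give each peak's fold over local background (a ratio), its −log10 p-value and q-value and a score. These values are the authors' own and were used only to describe or rank peaks; the score was not otherwise used. The lowest −log10 q was 2.03 to 2.60. Numbers of peaks stand for depth, since no read totals are at hand.

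Genes came from RefSeq (GRCm38.p6, whose chromosome coordinates match p3): 21523 protein-coding intervals, after 108 ending in the first 3 Mb of a chromosome were left out, taken as coordinates on unplaced sequence. Regions were merged and members chosen as the report states; a desert is a gap between merged protein-coding intervals, and Mb refer to its sequence more than 100 kb from them. The rule counts calls over all libraries, so shares called are descriptions. Group values were compared by exact permutation over libraries. Shares of members called in other libraries carry exact Clopper-Pearson intervals at 95%, which cover counting error only, and neighbouring members are not independent. Members, gene lists and loci were chosen with earlier results of these data known. Named are the 12 largest clusters, the 5 deserts with most gained or lost members in EF and with IGF1, the 3 for each single library, and the 4 richest flanking genes of a list; strongest members were taken by −log10 p of that direction. Ties at a last place were given to the smaller start coordinate. Unnamed gene models (Gm or Rik names) were passed over as flanking genes. Sequences were read from RefSeq tables of start windows and microRNAs; region sequences were not used here. The code was tested on simulated peaks, and Python 3.11.15, numpy 2.4.6, pandas 2.3.3 and scipy 1.17.1 were used.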

Additional observations from a re-analysis of the deposited data

Results flagged for a closer look

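These 3 values over members stood apart from the others of their group by Dixon's ratio, among 30 tests of groups of 4, where chance gives about 1 in 20. EF replicate 2 called 12.9% of the members, against 39.5% to 43.9% in the other EF libraries; it had 27309 peaks. EF replicate 2 called 0 of the 18 members at Firre, against 15 to 17 in the other EF libraries. Wt replicate 2 called 14 of those 18, against 0 to 1 in the other Wt libraries.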

How the results depend on the processing

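No paired analysis was possible because EF and Wt, the groups of the tested comparison, share no line and replicate numbers were given in accession order; the IGF1 counts carry no test and ask for the same change in both lines as labelled. None of the 4 tested differences between EF and Wt passed the threshold under the alternatives run, although within a flowcell the smallest possible p is 0.333, so those fits could not pass it; the sign turned within BSF_1013 for the share of peaks in deserts (−0.292), the members called (−7.00) and the members among called regions (−0.501), and the cause was not tested. Leaving out 1 library at a time gave 0.795 to 3.23, −1.59 to 15.6 and 1.35 to 3.30 percentage points for these 3, and 0.0110 to 0.105 for the Jaccard difference, which was 0.128 over the top 7000 peaks of each library.

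Counts without a test moved with the rule. For members, clusters, members gained in EF, lost in EF, gained with IGF1 and lost with IGF1 in that order, a limit of 200 kb gave 4929, 463, 142, 41, 255 and 176, genes of every type gave 1498, 118, 50, 8, 64 and 54, and the top 7000 peaks of each library gave 840, 15, 41, 6, 45 and 24. A limit of 50 kb gave 15229 members, 1704 clusters, 395 gained and 177 lost in EF and 823 gained with IGF1. Regions called in 3 to 10 libraries formed 630 clusters, and a gap of 10 kb gave 656. Lost members in EF numbered 1006 within BSF_1013. Within line S_221 1129 were gained and 1322 lost with IGF1 and, added after the data were seen, 2260 and 2422 within line S_220 as labelled. Leaving out 1 library at a time gave 38 to 458 gained and 5 to 154 lost in EF, and 591 to 1666 gained and 478 to 2056 lost with IGF1. Windows of 250 bp around summits and peaks with a −log10 q of at least 5 moved none of the counts computed under them by more than 1.5 times. Of those added after the data were seen, autosomes alone moved none of the 4 gained and lost counts so far, and regions defined without Wt replicate 1 or EF_IGF1 replicate 1 moved neither the number of members nor that of clusters.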
